A study of Mus musculus with 6 samples.

Results

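The annexin and S100a genes described here are the 25 rows of the deposited gene counts whose symbol is Anxa or S100a followed by digits alone, out of 23337 gene rows. They comprise 12 annexin genes and 13 S100a genes. The rule reads the symbol alone and uses no measured value, but it was set with earlier results of these data known. RNA came from nuclei of mouse neural precursor cells, grown from dorsal forebrain of E13.5 embryos and kept in medium with EGF and basic FGF at 20 ng/ml each and heparin at 5 ug/ml. The 3 WT samples (lines 3, 8 and 19) carry the label Fmr1 WT, the 3 KO samples (lines 3, 13 and 16) the label Fmr1 KO, and all 6 were at passage 6-7. The design text calls the lines independent. The comparison asks how nuclear RNA differs with the state of Fmr1, which encodes FMRP, an RNA-binding protein.

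Annexins are proteins that bind membrane phospholipids when calcium rises, and they take part in vesicle traffic, membrane repair and the link between membrane and cortical actin. S100A proteins are small EF-hand calcium sensors, and several of them bind the amino-terminal tail of a particular annexin: S100A10 binds annexin A2, S100A11 binds annexin A1 and S100A6 binds annexin A11. In the brain, annexins and S100 proteins are best known from glia, where several rise in reactive astrocytes. S100A8 and S100A9 are abundant in neutrophils.

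Total counts ran from 18702738 to 26789522 per library. The targeted gene did not follow every label: Fmr1 measured 223 to 274 CPM (counts per 1000000 counts of the library, with libraries aligned by the trimmed mean of M values) in the WT lines, 188.2 and 153 CPM in KO lines 13 and 16, and 371 CPM in the library labelled KO line 3, which lay above the WT range. The groups overlapped, and Fmr1 was not called between them (log2 fold change -0.10, SE 0.29, edgeR adjusted p = 0.795). Directions are therefore given by label, KO against WT. WT line 19 and the library labelled KO line 3 stood apart from the others of their genotype, and a chi-square of their counts, divided by its degrees of freedom, was 61.3 to 91.5 against those lines, where the remaining pairs gave 10.8 and 16.4. Xist, the RNA of the inactive X chromosome, was above 1000 CPM in WT lines 3 and 8 and KO line 3 only.

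Of the 25 genes, 20 had a count in at least 1 library, 17 had a count in every library, and 16 had enough counts to be tested (9 annexins and 7 S100a genes). The 3 annexins outside the test were Anxa8, Anxa10 and Anxa13. Among S100a genes, S100a2, S100a3, S100a5, S100a8, S100a9 and S100a14 were outside it.

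In the libraries labelled KO, Anxa2 fell 7.13-fold, and Anxa4, Anxa7 and Anxa9 fell by smaller factors, while Anxa6, the most abundant annexin, and Anxa11 rose. S100a10, the partner gene of Anxa2, did not pass the test. In the S100a family S100a1 fell and S100a16 rose. In all, 3 of 16 tested members rose and 5 fell in edgeR's quasi-likelihood test (adjusted p under 0.05 after Benjamini-Hochberg adjustment over 13925 genes), where 21.8% of all tested genes rose and 20.4% fell. Members called in either direction thus made up 8 of 16, beside 42.3% of all tested genes. The same number of members (3 above, 5 below) had values that did not overlap between the groups, beside 54.3% of all tested genes (28.6% above and 25.7% below). By family, 6 of 9 annexins and 2 of 7 S100a genes were called. The median log2 fold change was -0.63 over the tested annexins and -0.17 over the tested S100a genes, beside 0.01 over all tested genes. The median size of the log2 fold change, sign aside, was 0.76, 0.31 and 0.37 in the same order. Without WT line 3, or without KO line 16, only 1 member was called higher (Anxa6), where 14.2% and 19% of all genes were, and the number called lower was 5 and 6, where 16.2% and 18.0% of all genes were.

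**Figure D1:**
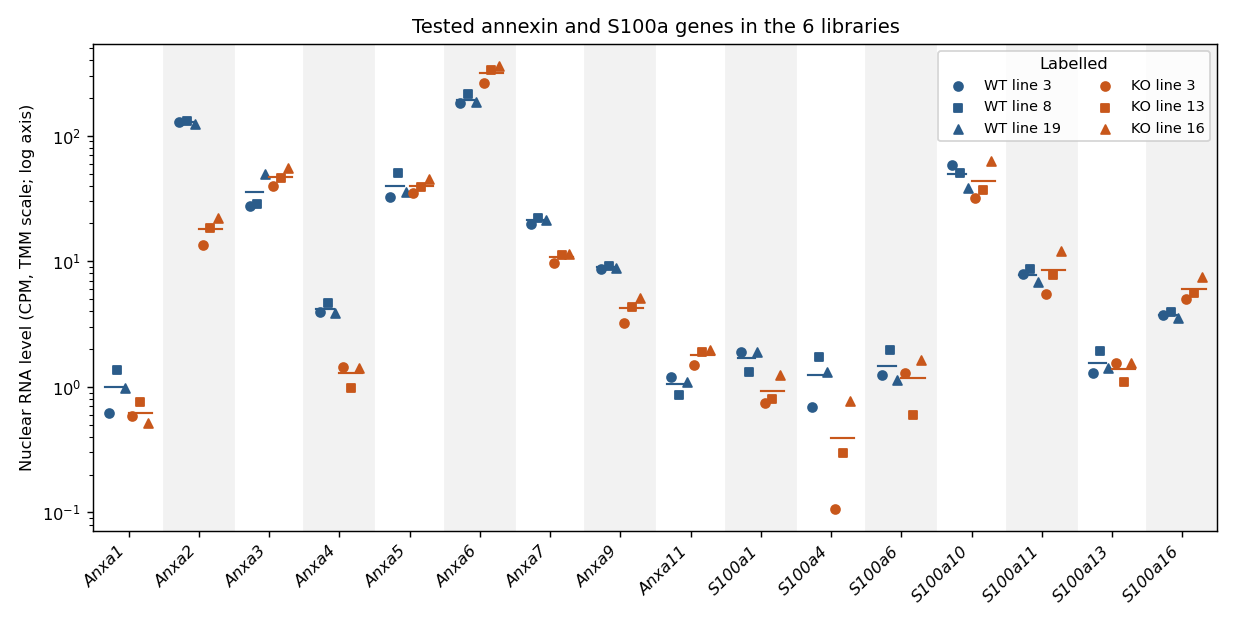
Nuclear RNA level (CPM, log axis) of the 16 tested annexin and S100a genes in each of the 6 libraries, with WT lines in blue, libraries labelled KO in orange and the group means as horizontal lines. Anxa2 lies at 124 to 131 CPM in WT and 13.47 to 21.9 CPM in the libraries labelled KO, while S100a10 overlaps between the groups.

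Annexin A2 gathers at the plasma membrane and on endosomes, where with S100A10 it forms a complex that binds plasminogen and actin. Anxa2 (ENSMUSG00000032231.14, chromosome 9, 69453620 to 69491795 in GRCm38) measured 128, 131 and 124 CPM in WT lines 3, 8 and 19 and 13.47, 18.4 and 21.9 CPM in KO lines 3, 13 and 16. The groups lay far apart, and the WT lines differed by little, with a coefficient of variation of 2.89%, the lowest of the 16 tested members in WT. This was the largest fall among the tested members (log2 fold change -2.83, SE 0.17, edgeR adjusted p = 1.85e-05). It ran from -2.99 to -2.66 when each line was left out and was -2.69 without WT line 19 and KO line 3. In a bulk sample, fewer cells that express a gene and less RNA per cell cannot be told apart. GENCODE places exons of Gm16144 on the opposite strand over those of Anxa2, and with the strand setting not given in the sources used here, reads of such pairs cannot be told apart.

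The 250 bases before the RefSeq start of Anxa2 are shown because this gene changed most, and those of Anxa4 and Anxa11 because they fell and rose. Capitals mark matches, on either strand, to any of 4 motifs. For the AP-1 site the letters searched were TGANTCA, in which N stands for any base. The GC box, known as a site of Sp1, was searched as GGGCGG. The CCAAT box was searched by the letters of its name. For the TATA box, a core promoter element, the search used TATAAA, and matches of different motifs nowhere overlapped. The sequences are RefSeq's for GRCm38.p6, read 5′ to 3′ along the gene's strand, at chr9:69453433-69453682 on the plus strand for Anxa2, chr6:86793585-86793834 on the minus strand for Anxa4 and chr14:25841905-25842154 on the plus strand for Anxa11.
Anxa2: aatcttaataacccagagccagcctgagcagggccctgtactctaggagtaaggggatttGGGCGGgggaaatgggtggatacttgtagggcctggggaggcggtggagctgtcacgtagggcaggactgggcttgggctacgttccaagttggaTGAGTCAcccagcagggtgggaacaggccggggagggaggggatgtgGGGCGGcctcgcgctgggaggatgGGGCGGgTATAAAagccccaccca
Anxa4: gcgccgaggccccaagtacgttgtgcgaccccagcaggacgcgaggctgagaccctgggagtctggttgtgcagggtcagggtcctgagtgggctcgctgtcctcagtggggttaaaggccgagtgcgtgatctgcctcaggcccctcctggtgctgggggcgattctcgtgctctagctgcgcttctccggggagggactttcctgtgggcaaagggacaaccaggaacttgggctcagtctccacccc
Anxa11: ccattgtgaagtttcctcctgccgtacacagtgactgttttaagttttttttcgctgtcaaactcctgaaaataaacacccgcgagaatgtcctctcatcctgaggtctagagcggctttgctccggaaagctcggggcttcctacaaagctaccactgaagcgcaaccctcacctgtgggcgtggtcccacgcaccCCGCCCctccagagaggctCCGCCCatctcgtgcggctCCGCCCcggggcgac
The Anxa2 window held 1 AP-1 match, 3 GC boxes and 1 TATA box, that of Anxa11 held 3 GC boxes, and that of Anxa4 held 0 matches. Of 27025 promoters, 1 per gene, 6.85% held the AP-1 letters, 33% a GC box, 34.5% a CCAAT box and 13% a TATA box. A promoter was read for 19 of the 25 members, and 3 of them held an AP-1 match, 5 a GC box, 2 a CCAAT box and 5 a TATA box. Such a match describes the letters in the window and is not evidence of a bound factor.

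S100a10 (ENSMUSG00000041959.14, chromosome 3, 93555080 to 93564643 in GRCm38), whose product binds the tail of annexin A2, measured 58.7, 50.5 and 38.4 CPM in WT lines 3, 8 and 19 and 31.7, 36.8 and 62.5 CPM in KO lines 3, 13 and 16. KO line 16 held the highest value of all 6 libraries and KO line 3 the lowest, so the groups overlapped. Its log2 fold change was -0.17 (SE 0.25, edgeR adjusted p = 0.614), and turned to 0.01 without KO line 3. Per length of exon, the ratio of Anxa2 to S100a10 within a library was 0.71, 0.844 and 1.05 in the WT lines and 0.138, 0.162 and 0.114 in KO lines 3, 13 and 16. The ratio was lower in every library labelled KO than in every WT library.

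Annexin A1, an anti-inflammatory protein induced by glucocorticoids, and its partner S100A11 made up another known binding pair. Anxa1 was scarce, at 0.622, 1.37 and 0.976 CPM in WT lines 3, 8 and 19 and 0.588, 0.761 and 0.515 CPM in KO lines 3, 13 and 16, with 62 counts in all WT libraries and 41 in those labelled KO. The groups overlapped (log2 fold change -0.63, SE 0.36, edgeR adjusted p = 0.194). S100a11 measured 7.97, 8.71 and 6.78 CPM in the WT lines and 5.50, 7.74 and 12.1 CPM in KO lines 3, 13 and 16. As with S100a10, KO lines 3 and 16 took the lowest and the highest place among all 6 libraries. The log2 fold change of S100a11 was 0.12 (SE 0.26, edgeR adjusted p = 0.753), and it turned to -0.22 without KO line 16.

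Annexin A11, which links RNA granules to lysosomes and binds S100A6 (calcyclin), was scarce but higher in the libraries labelled KO. Anxa11 measured 1.21, 0.861 and 1.08 CPM in WT lines 3, 8 and 19 and 1.496, 1.90 and 1.97 CPM in KO lines 3, 13 and 16. The groups did not overlap, and the log2 fold change was 0.76 (SE 0.25, edgeR adjusted p = 0.0355). Exons of Anxa11os lie over those of Anxa11 on the opposite strand. The call rested on few counts (70 in WT and 119 in the libraries labelled KO) and was lost when any line but KO line 3 was left out (adjusted p up to 0.119), in the DESeq2 Wald test (adjusted p = 0.0899) and with Xist state as a covariate (adjusted p = 0.0716). S100a6 measured 1.24, 1.98 and 1.14 CPM in the WT lines and 1.28, 0.592 and 1.63 CPM in KO lines 3, 13 and 16. KO line 13 lay lowest and WT line 8 highest (log2 fold change -0.31, SE 0.39, edgeR adjusted p = 0.546).

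Annexin A6, which carries a duplicated annexin core and acts in membrane repair and endosomal cholesterol traffic, was the most abundant annexin RNA in both groups and rose in the libraries labelled KO. Anxa6 (ENSMUSG00000018340.13, chromosome 11, 54979108 to 55033445 in GRCm38) measured 181, 214 and 185 CPM in WT lines 3, 8 and 19 and 265, 331 and 358 CPM in KO lines 3, 13 and 16. All libraries labelled KO lay above all WT libraries (log2 fold change 0.72, SE 0.14, edgeR adjusted p = 0.00315), with a range of 0.63 to 0.84 over the fits that left out a line.

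Annexin A4, which aggregates vesicles and is known from epithelia, fell. Anxa4 measured 3.91, 4.61 and 3.90 CPM in WT lines 3, 8 and 19 and 1.44, 0.973 and 1.42 CPM in KO lines 3, 13 and 16. The groups were well apart (log2 fold change -1.70, SE 0.23, edgeR adjusted p = 0.000543). GENCODE places exons of Gm44036 over Anxa4 on the opposite strand.

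Annexin A7 (synexin), an annexin of membrane fusion and secretion, fell with little spread in either group. Anxa7 measured 19.8, 22.3 and 21.4 CPM in WT lines 3, 8 and 19 and 9.62, 11.2 and 11.4 CPM in KO lines 3, 13 and 16. Expressed as log2 this was -0.97 (SE 0.13, edgeR adjusted p = 0.000493), and it stayed between -1.03 and -0.90 when a line was left out.

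Annexin A9 is an atypical annexin whose core is held to lack working calcium sites. Anxa9 measured 8.67, 9.22 and 8.89 CPM in WT lines 3, 8 and 19 and 3.21, 4.31 and 5.11 CPM in KO lines 3, 13 and 16. The groups did not overlap, and the log2 fold change was -1.08 (SE 0.19, edgeR adjusted p = 0.00203). Exons of Mindy1 lie over those of Anxa9 on the opposite strand, and those of 6330562C20Rik on the same strand.

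Annexin A5, the phosphatidylserine-binding protein used to stain apoptotic cells, differed least. Anxa5 measured 32.6, 50.7 and 35.8 CPM in WT lines 3, 8 and 19 and 34.7, 39.3 and 45.5 CPM in KO lines 3, 13 and 16. The groups overlapped throughout (log2 fold change 0.01, SE 0.18, edgeR adjusted p = 0.982). Anxa3 measured 27.5, 28.7 and 50.0 CPM in the WT lines and 39.4, 46.0 and 55.6 CPM in KO lines 3, 13 and 16. Here WT line 19 lay among the libraries labelled KO while the other WT lines lay below them. Exons of Gm42603 overlap those of Anxa3 on the same strand. The log2 fold change of Anxa3 was 0.41 (SE 0.23, edgeR adjusted p = 0.184), and it became 0.74 once WT line 19 was left out (adjusted p = 0.0129) and 0.86 once KO line 3 was left out as well (adjusted p = 2.20e-05).

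**Figure D2:**
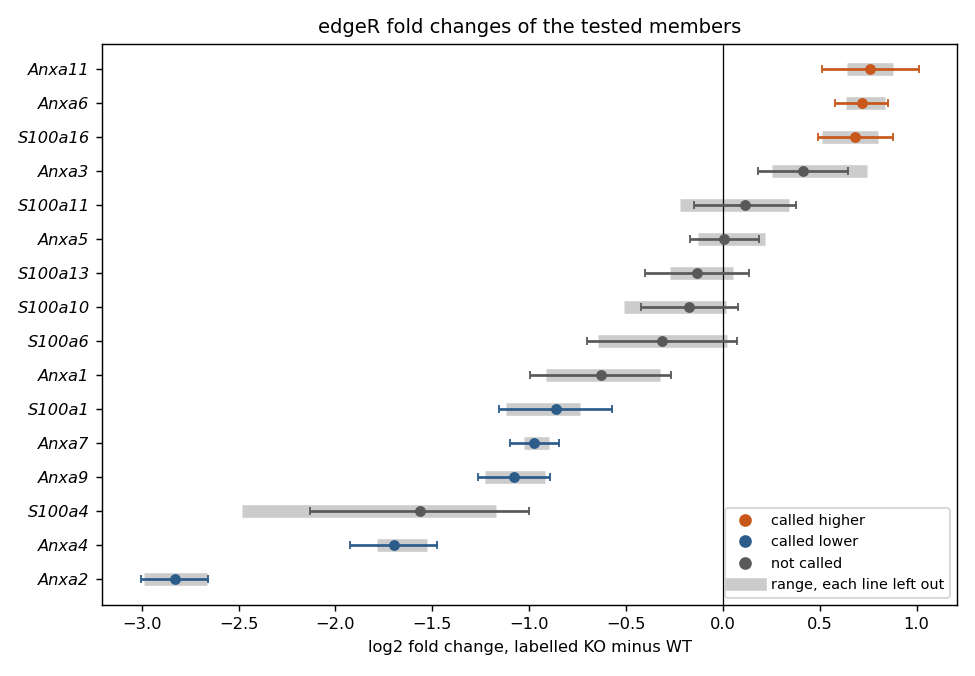
Log2 fold change (labelled KO minus WT) of the 16 tested members from the edgeR fit, with bars of 1 SE, and grey bands for the range when each of the 6 lines was left out in turn. Anxa2 and Anxa4 lie lowest at -2.83 and -1.70, Anxa11, Anxa6 and S100a16 highest at 0.76, 0.72 and 0.68, and the widest band is that of S100a4, from -2.48 to -1.17.

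The genes of the remaining S100a proteins were low. S100A16, a widely expressed family member, rose: S100a16 measured 3.73, 3.95 and 3.52 CPM in WT lines 3, 8 and 19 and 4.97, 5.58 and 7.42 CPM in KO lines 3, 13 and 16. The groups did not overlap (log2 fold change 0.68, SE 0.19, edgeR adjusted p = 0.0202), but leaving out WT line 3, WT line 19 or KO line 16 ended the call, at adjusted p = 0.0691, 0.0626 and 0.0646. S100A4, known as metastasin and as a fibroblast marker, had the widest spread of the tested members. S100a4 measured 0.695, 1.72 and 1.30 CPM in the WT lines and 0.107, 0.296 and 0.772 CPM in KO lines 3, 13 and 16. Its exons overlap those of Gm42674 on the same strand. KO line 16 lay above WT line 3, and the difference missed the threshold (log2 fold change -1.57, SE 0.57, edgeR adjusted p = 0.0516). Other tests and scalings put S100a4 past it, with adjusted p = 0.0271 in the DESeq2 Wald test and 0.0393 in limma-voom. Leaving out WT line 3 (edgeR adjusted p = 0.0279) or KO line 16 (adjusted p = 0.0125) did so too. Leaving out any other line did not (edgeR adjusted p from 0.0632 without KO line 3 to 0.173 without WT line 8). Nor did leaving out WT line 19 and KO line 3 together (edgeR adjusted p = 0.0904). S100a4 rested on few counts, 77 in WT and 27 in the libraries labelled KO.

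S100A1, a calcium sensor of muscle and neurons, and S100A13, which takes part in the release of FGF1, are encoded head to head on chromosome 3. S100a1 measured 1.90, 1.32 and 1.90 CPM in WT lines 3, 8 and 19 and 0.748, 0.804 and 1.24 CPM in KO lines 3, 13 and 16. The groups just failed to meet, between 1.24 and 1.32 CPM, and the log2 fold change was -0.86 (SE 0.29, edgeR adjusted p = 0.0405). This call was lost in the DESeq2 Wald test (adjusted p = 0.0702) and when WT line 3, WT line 19, KO line 3 or KO line 13 was left out (adjusted p up to 0.136). S100a13 measured 1.28, 1.93 and 1.41 CPM in the WT lines and 1.55, 1.10 and 1.54 CPM in KO lines 3, 13 and 16. Its groups overlapped (log2 fold change -0.13, SE 0.27, edgeR adjusted p = 0.718). The windows of 250 bases before the starts of both genes share 104 bases, so the sequence is shown for S100a1 alone, at chr3:90514331-90514580 on the minus strand, where none of the motifs above was found.
S100a1: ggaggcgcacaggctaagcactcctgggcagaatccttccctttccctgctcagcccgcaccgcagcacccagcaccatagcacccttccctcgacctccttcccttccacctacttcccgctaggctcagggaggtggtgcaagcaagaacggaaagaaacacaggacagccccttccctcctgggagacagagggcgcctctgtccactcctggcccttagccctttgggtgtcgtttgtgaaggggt

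The remaining 9 members were at or near the detection limit. Anxa8, Anxa10, S100a2, S100a5 and S100a9 had 0 counts in all 6 libraries, which allows a level of up to 0.11 to 0.163 CPM per library (3 counts, for counting error only). Anxa13 had 3 counts, all in WT libraries, S100a14 had 2 in WT and 1 in the libraries labelled KO, and S100a8 had 1, in WT. S100a3 had 2 counts in each WT library and 1 in each library labelled KO, too few for a test. The neutrophil pair S100a8 and S100a9 was thus detected by a single count. Before the start sites of the 6 untested members with a promoter the median number of CpG dinucleotides was 2, against 9 for the 13 tested ones and 6 over all promoters read. Medians over all tested and all untested genes were not taken, so the contrast cannot be called particular to these members. Of the 19 member windows, 16 matched a GENCODE transcript start.

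All 13 S100a genes and also Anxa5 and Anxa9 lie on chromosome 3, while the other annexins are spread over chromosomes 5, 6, 8, 9, 11, 14, 15 and 19. Within the main S100a cluster (90511034 to 90695721 on chromosome 3 in GRCm38) S100a1 fell, S100a16 rose and S100a4, S100a6 and S100a13 were not called. S100a11 and S100a10, next to each other further along the chromosome, were not called either. Of 9 tested genes in a list of neighbours of the cluster, 4 rose and 1 fell, so that 55.6% were called beside 42.3% of all tested genes. Lor (loricrin) and Tchh (trichohyalin), genes of the epidermis, rose from 0.289 to 2.26 CPM and from 0.154 to 1.62 CPM (log2 fold changes 2.95, SE 0.30, and 3.33, SE 0.51). They had at most 8 and 4 counts in a WT library. Of the list's 22 genes in the data, 10 had 0 counts in all 6 libraries, among them the epidermal genes Flg2, Hrnr and Crnn. Ilf2 and Gatad2b rose by 0.51 and 0.59 on the log2 scale, and Slc27a3 fell (log2 fold change -0.35, edgeR adjusted p = 0.0431).

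Levels were set side by side between genes only per kilobase of merged exon. On this scale Anxa6 led in WT at 66.0 ± 6.21 CPM per kb (SD, n = 3), followed by S100a10 at 40.6 ± 8.43, Anxa2 at 34.3 ± 0.989, Anxa5 at 22.3 ± 5.41, S100a11 at 15.3 ± 1.91 and Anxa3 at 9.72 ± 3.47 CPM per kb. S100a10 and Anxa2 overlapped in WT, as did S100a11 and Anxa3. In the libraries labelled KO the order was Anxa6 at 108.5 ± 16.4, S100a10 at 36.0 ± 13.6, Anxa5 at 22.4 ± 3.05, S100a11 at 16.5 ± 6.57, Anxa3 at 12.9 ± 2.23 and Anxa2 at 4.81 ± 1.139 CPM per kb. There S100a11 overlapped with Anxa5 above it and Anxa3 below it in the order, while Anxa6 and S100a10 lay above these genes in level and Anxa2 below them. Summed over the 12 annexins, the level was 142 ± 11.96 CPM per kb in WT and 153 ± 23.3 CPM per kb in the libraries labelled KO, with overlapping groups. The make-up of that sum differed: Anxa2 held 26.3, 22.7 and 23.8% of it in WT lines 3, 8 and 19 and 2.81, 3.13 and 3.37% in KO lines 3, 13 and 16. Anxa6 held 47.2, 47.3 and 45.3% in the WT lines and 70.4, 71.7 and 70.1% in KO lines 3, 13 and 16. The shares of Anxa3 and Anxa5 overlapped between the groups. Within a library Anxa6 exceeded Anxa2 by 1.80 to 2.08 times in WT and by 20.8 to 25.0 times in the libraries labelled KO. The sum over the S100a genes was 66.1 ± 9.70 and 61.1 ± 22.2 CPM per kb, of which S100a10 held 61.1% and 58.8%.

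**Figure D3:**
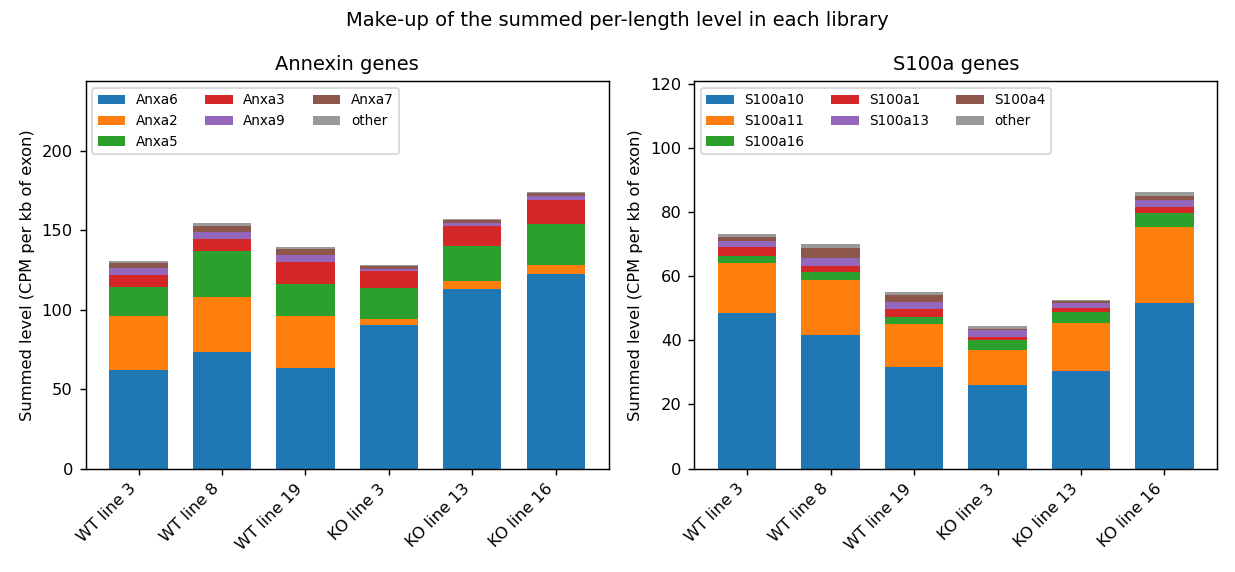
Summed level of the annexin genes (left) and S100a genes (right) in each library, in CPM per kb of exon, with each bar divided by gene. The annexin sums lie between 128 and 174 CPM per kb, and Anxa2 takes 22.7 to 26.3% of the sum in WT and 2.81 to 3.37% in the libraries labelled KO.

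The lines of a genotype were not alike. Among the libraries labelled KO, line 16 was highest in 13 of the 16 tested members and line 3 lowest in 12, where over all tested genes these shares were 34.7% and 39.2%. Among WT lines, line 8 was highest in 12 of 16, beside 34.4% of all tested genes. The median coefficient of variation of the tested members was 18.2% in WT and 21.0% in the libraries labelled KO, beside 9.03% and 13.8% over all tested genes. Within the libraries with Xist above 1000 CPM (WT lines 3 and 8, KO line 3) and within those below it (WT line 19, KO lines 13 and 16), the log2 ratio of mean levels was -3.27 and -2.62 for Anxa2, -1.56 and -1.71 for Anxa4, and 0.42 and 0.90 for Anxa6. S100a10 and S100a11 differed in sign between these subsets, at -0.79 and 0.37 for S100a10 and at -0.60 and 0.55 for S100a11.

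Known partners of the annexins and S100A proteins moved in both directions. Of 16 tested genes of a list of such partners, 4 rose and 3 fell, beside 21.8% and 20.4% of all tested genes. Dysf, which encodes dysferlin, a membrane repair protein, rose from 3.76 ± 0.65 to 11.4 ± 1.08 CPM (SD, n = 3 each; log2 fold change 1.60, SE 0.17, edgeR adjusted p = 0.000195). The receptor genes moved apart: Ager, which encodes RAGE, a receptor of S100 proteins, rose by 0.77 on the log2 scale (SE 0.13), and Tlr4, a receptor of S100A8 and S100A9, fell from 1.29 ± 0.27 to 0.146 ± 0.105 CPM. Fpr1 and Fpr2, receptors of annexin A1, had at most 4 counts in a library. Without KO line 3, where 53.7% of all genes were called, the list had 5 genes higher and 6 lower.

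Of 7 tested genes of the plasminogen system, which the annexin A2 complex recruits to the cell surface, 3 fell and 0 rose. Over all tested genes 20.4% fell and 21.8% rose. At 42.9% called, the list was near the 42.3% of all tested genes. Plat, the tissue plasminogen activator, fell from 560.1 ± 51.5 to 259 ± 23.0 CPM (log2 fold change -1.11, SE 0.12, edgeR adjusted p = 0.00017). Serpine2, an inhibitor of plasminogen activators, fell with it, from 773 ± 50.9 to 387 ± 23.5 CPM, and Hpn, the serine protease hepsin, from 6.88 ± 0.219 to 0.544 ± 0.163 CPM. Plaur, the receptor of urokinase, had a log2 fold change of 0.59 (edgeR adjusted p = 0.0643). Plau, which encodes urokinase, and Serpini1, the gene of neuroserpin, an inhibitor, were not called (log2 fold changes -0.20 and -0.75, edgeR adjusted p = 0.46 and 0.16). Plg, the gene of plasminogen itself, had at most 5 counts in a library. Without KO line 3, 5 genes were lower and 1 higher, where 27.8% of all tested genes were lower and 25.8% higher.

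Of 20 tested genes of calpains, caveolae and cortical actin linkers, which act beside annexins at the plasma membrane, 5 rose and 5 fell, where 21.8% and 20.4% of all tested genes did. Cav2, Cav1 and Sdpr, which encode caveolar proteins, fell by log2 fold changes of -2.10 (SE 0.24), -1.03 (SE 0.14) and -1.39 (SE 0.26). Ptrf, which encodes the caveolar coat protein cavin-1, lay the other way without passing the test, at 77.8 ± 5.44 CPM in WT and 99.0 ± 18.9 CPM in the libraries labelled KO (log2 fold change 0.35, SE 0.14, edgeR adjusted p = 0.0802), with no overlap between the groups. Ezr, which encodes the actin linker ezrin, rose by 0.88 on the log2 scale (SE 0.14, edgeR adjusted p = 0.00129). The more abundant Msn, which encodes the related linker moesin, fell from 1017 ± 88.8 to 687 ± 106 CPM (log2 fold change -0.56, edgeR adjusted p = 0.0114). Rdx, which encodes radixin, lay lower without overlap between the groups but was not called (log2 fold change -0.28, edgeR adjusted p = 0.0839). Of 6 other tested S100 and EF-hand genes edgeR called 0, with 2 at an unadjusted p under 0.05, while the DESeq2 Wald test and limma-voom, which called 42.8% and 43.2% of all genes, each called 1 lower. Without KO line 3, where 53.7% of all genes were called, edgeR called 1 of them higher and 2 lower. Without WT line 19, where 33.5% of all genes were called, it called 1 lower. S100b, the classic astrocyte S100 gene, was scarce, at 0.977 ± 0.569 CPM in WT and 0.708 ± 0.169 CPM in the libraries labelled KO (log2 fold change -0.44, SE 0.43, edgeR adjusted p = 0.432).

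**Figure D4:**
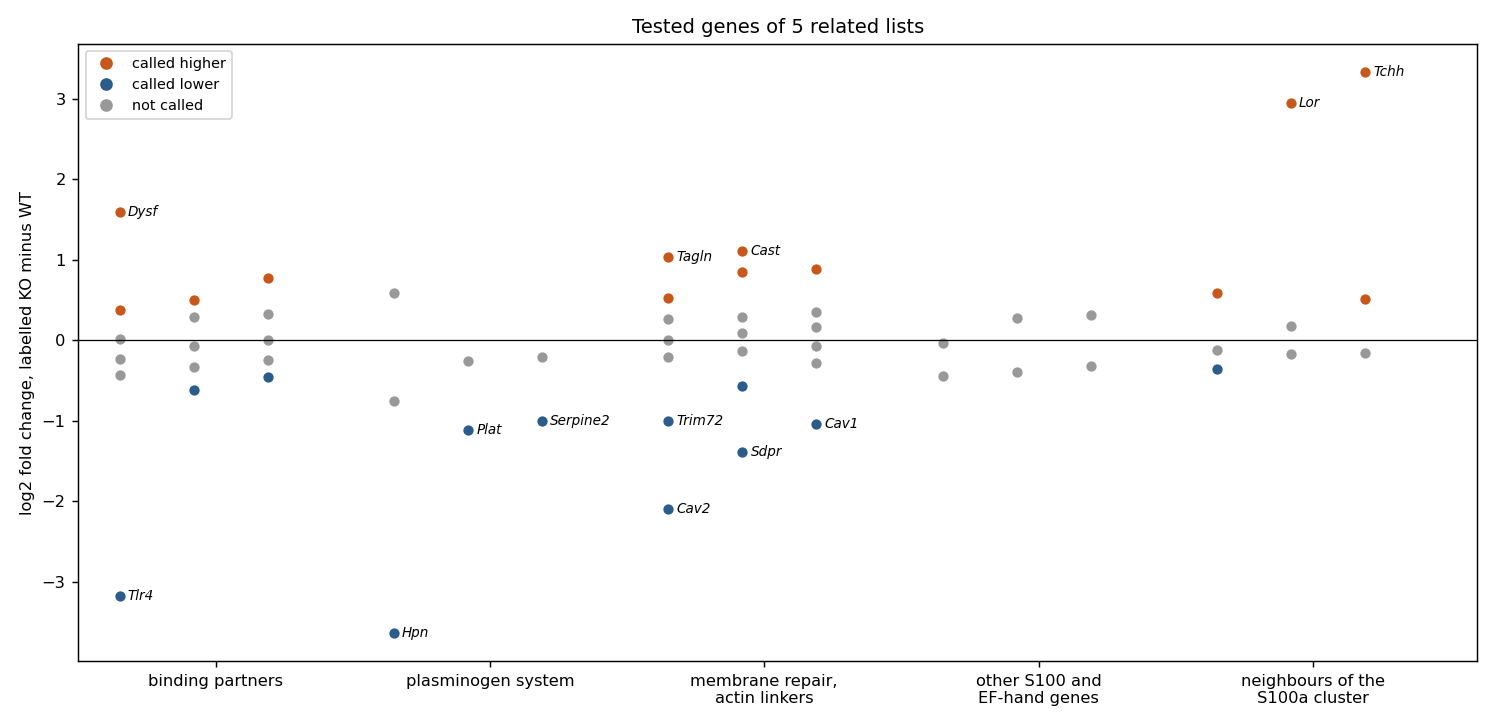
Log2 fold change (labelled KO minus WT) of the tested genes of 5 related lists, coloured by the edgeR call, with names for changes beyond 0.95 in size. Tlr4 and Hpn lie lowest at -3.18 and -3.64, and Tchh and Lor, near the S100a cluster, highest at 3.33 and 2.95.

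Markers of neural precursors and of other cell types were set beside these results. Each count from all 6 libraries is to be read against the 21.8% of all tested genes that rose and the 20.4% that fell. Of 12 neural precursor markers, all tested, 1 rose and 2 fell (25% called, beside 42.3% of all tested genes). Nr2e1 rose (log2 fold change 0.64), and Vim and Slc1a3 fell (-0.48 and -0.35). Of those not called, Sox2, Pax6, Sox9, Hes5 and Msi1 lay upward and Nes, Fabp7, Notch1 and Prom1 downward. Their summed level was 8007 to 9068 CPM in WT and 5995 to 7439 CPM in the libraries labelled KO. The largest parts of it in WT were Vim and Nes, at means of 2558 and 2448 CPM. Of 11 astrocyte markers 6 fell and 1 rose (63.6% called), with sums of 680 to 1051 CPM in WT and 345 to 478 CPM in the libraries labelled KO, and Agt, Cd44, Clu and Gja1 fell by log2 fold changes of -5.28, -2.79, -3.68 and -1.39. Fgfr3, the astrocyte marker that rose, went from 40.4 ± 9.58 to 110 ± 31.5 CPM (log2 fold change 1.44, SE 0.24). Of the astrocyte markers not called, Aldoc and Aqp4 lay upward and Slc1a2 and S100b downward. The part of astrocyte markers in the fall of Anxa2 and of the other annexins was not tested. Among markers of the oligodendrocyte lineage 4 of 7 tested rose (57.1% called), and among neuronal markers 3 of 6 (50% called). Of 5 tested ependymal markers 3 fell (60% called), and of 5 tested fibroblast and meningeal markers 2 rose and 2 fell (80% called), while the endothelial list had 1 higher and 1 lower of 5 (40% called). Without WT line 19 these became 1 and 1 for fibroblast and meningeal markers, 0 and 0 for endothelial ones, and 0 neural precursor markers were lower. In that fit the shares of all tested genes were also smaller, at 17.0% higher and 16.5% lower. Epithelial markers, among which Krt5 and Krt14 had 0 counts, summed to at most 0.253 CPM in WT and 3.79 CPM in the libraries labelled KO. Of the latter, 3.74 CPM was Cdh1 in KO line 3, a gene with 0 counts in the other libraries. Neutrophil markers summed to at most 1.28 CPM in any library, and Elane and Retnlg had 0 counts. Of the microglial and macrophage list 0 of 2 tested genes were called by edgeR (1 at an unadjusted p under 0.05, and 0 by DESeq2 or limma-voom), and Tmem119 and Tyrobp had 0 counts. This list summed to 28.2 to 33.9 CPM in WT and 20.6 to 28.3 CPM in the libraries labelled KO. Most of that was Cd68, at 29.6 ± 2.95 and 23.3 ± 4.11 CPM (log2 fold change -0.34, edgeR adjusted p = 0.0961).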

How the data were processed

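Nuclear RNA of 6 mouse neural precursor lines was sequenced, 3 per genotype label. The files hold raw counts for each gene symbol, as deposited and not normalized. STAR, HTSeq 0.7.2, cutadapt 1.14 and DESeq2 appear in the submitters' processing notes, with build mm10. Tool roles, annotation and strand setting were not given in the sources that were used here.

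The test was edgeR's robust quasi-likelihood F test (edgeR 4.0.16, R 4.3.3), two-sided, after TMM scaling and filterByExpr, with Benjamini-Hochberg adjustment over 13925 genes and a threshold of 0.05. The code was tested on simulated data. CPM values are counts per 1000000 of TMM-scaled library size, and 1 count was worth 0.0366 to 0.0542 CPM. Alternatives were other scalings and filters, DESeq2 1.42.0, limma 3.58.1 (voom), a threshold of 0.10, Xist state as a covariate and leaving out lines. List counts without WT line 19 or KO line 3 were added after seeing the data. The members, lists and markers were chosen with earlier results of these data known. Every member was named, tested ones with all values, and from each other list up to 4 tested genes by smallest p, beside a few named after their values were seen. Some genes of these lists are not reported here. Lengths and positions came from GENCODE M21 (GRCm38) and promoters from RefSeq. Floors cover counting error only. SDs were taken over the lines of a group, and SEs came from the edgeR fit, which includes spread between lines. Lines are the replicates. Fmr1 RNA lay above the WT range in 1 library labelled KO and was not called between the groups.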

Additional observations from a re-analysis of the deposited data

How the results depend on the processing

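Of 254 values of single members under 16 alternatives, 215 kept their direction and side of the threshold. Anxa2, Anxa4, Anxa6, Anxa7 and Anxa9 did so under all 16. The 11 that turned sign belong to genes that edgeR did not call. The log2 fold change of Anxa5 was -0.0059 with library size alone and -0.0087 with Xist state as a covariate, and ran from -0.13 to 0.22 when a line was left out. That of S100a11 was -0.0105 with Xist state as a covariate and ran from -0.22 to 0.34 without a line. Without a line, S100a13 ran from -0.27 to 0.0536, S100a10 from -0.51 to 0.0137 and S100a6 from -0.65 to 0.01995. Leaving out a line gave 1 to 3 members higher and 4 to 6 lower, and 1994 to 3666 genes higher and 2120 to 3944 lower over all genes, where all 6 libraries gave 3040 and 2844. The fewest genes higher came without WT line 3. The cause was not tested. Other scalings moved the median log2 fold change of all genes from 0.0103 to between 0.00435 and -0.00574. S100a4 and Anxa1 had no value under a filter of 1 CPM in 3 libraries. No paired analysis was possible because the groups share only the replicate number 3. Genes near 1 CPM, such as Anxa11, S100a1 and S100a4, rest on few counts, and the part of depth in their spread was not tested.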
